A study of Mus musculus with 6 samples.

Results

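Chemokines are small secreted proteins that guide leukocytes through tissue, and they were followed here together with their receptors in steatohepatitic mouse liver. Members were the genes whose symbol is that of a CC, CXC, XC or CX3C ligand, of a receptor of these ligands, or of an atypical receptor, and that had 20 or more counts in total over the 6 libraries. Among 21956 genes measured, 61 carried such a symbol and 44 reached the count, namely 27 ligands, 13 signalling receptors and 4 atypical receptors. Just inside the limit lay Ccl11 with 20 counts in total and Xcl1 with 24, and just outside it lay Ccr6 with 17 and Ccl28 with 14. The other genes left out were Ccl1, Ccl12, Ccl17, Ccl20, Ccl21d, Ccl26, Ccl27b, Ccr1l1, Ccr4, Ccr8, Ccr10, Cxcl3, Cxcl15, Cxcl17 and Cxcr1, each with 13 counts or fewer.

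Livers of 6 mice were measured by bulk sequencing of polyadenylated RNA. The knockout group was 3 mice of genotype Stingfl/fl Cdh5-Cre+, in which Cre under the endothelial Cdh5 promoter deletes the floxed Sting1 alleles, and the control group was 3 Stingfl/fl Cdh5-Cre- littermates. Mice of both groups carried the floxed alleles, ate chow to the age of 8 weeks, and then spent 10 weeks on CDAHFD, a diet high in fat and lacking choline that causes steatohepatitis. Only the knockout mice carried Cre, so an effect of Cre itself and one of the deletion cannot be told apart. The labels name sinusoidal endothelial cells as the cell type, whereas the values are those of whole liver: the hepatocyte product albumin (Alb) had a mean of 77434 TPM in control livers and the endothelial marker Pecam1 26.1 TPM. In such bulk samples fewer cells of a type and less RNA per cell cannot be told apart.

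Chemokines bind receptors that couple to inhibitory G proteins and steer migrating cells up a gradient of ligand. Atypical receptors bind the same ligands without that coupling and take them up or carry them across cells. In fatty liver disease CCL2 is known for drawing CCR2-bearing monocytes, CXCL1 and CXCL2 for drawing neutrophils through CXCR2, CXCL9 and CXCL10 for drawing T cells through CXCR3, and CXCL16 for holding CXCR6-bearing lymphocytes in the sinusoid. Transcription of many inflammatory ligands is driven by NF-kB and by interferon-activated factors, and STING acts upstream of both.

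Library totals ranged from 16704663 to 21025466 counts. Control replicate 2 stood apart, with a TMM scaling factor of 1.26 against 0.922 to 1.01 in the other libraries, and it held the highest CPM (the count scaled to a fixed library size, after TMM scaling) of all 6 for 14 of the 44 members. Sting1 counts were 106, 114 and 80 in the 3 knockout livers, replicates 1 to 3 in that order here and throughout, against 240, 365 and 226 in the controls. It was lower in every knockout library, at 0.41 times the control level (log2 fold change -1.29, standard error 0.23, adjusted p = 0.357 in edgeR's quasi-likelihood test). Scaling by total counts alone moved the median log2 fold change of all genes tested from 0.01 to -0.21, and log2(TPM + 1) moved it to -0.20. Members whose direction changed with scaling are named as such.

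The chemokine genes lie in clusters, and some promoters carry the binding motif of NF-kB, which is shown because the neighbours Cxcl1 and Cxcl2 both carry it and had log2 fold changes of opposite sign. With a gap of at most 500 kb between neighbours, 7 clusters held 2 or more members on GRCm38. Cxcl5, Cxcl1 and Cxcl2 lie at chr5:90759360-90905938, Cxcl9 and Cxcl10 at chr5:92321347-92348889, and Ccl5, Ccl9, Ccl6, Ccl3 and Ccl4 at chr11:83525778-83664683. In the Ccl5 cluster 5 of 5 tested members had log2 fold changes above 0. On chromosome 4 the cluster of Ccl27a, Ccl19 and the near-identical copies Ccl21a and Ccl21b had 0 of 4. The cluster of Cxcl5, Cxcl1 and Cxcl2 had 1 of 3, and the receptor cluster on chromosome 9 held both signs, from -0.50 to 0.93. Those of Ccl2 and Ccl7 and of Cxcl9 and Cxcl10 had 2 of 2, and that of Ccl22 and Cx3cl1 had 0 of 2. Over all genes tested, 6759 of 13197 were above 0. Ccl2 (0.21), Ccl3 (0.16), Ccl7 (0.12), Ccl22 (-0.00), Ccl27a (-0.04) and Ccr1 (0.05) changed direction in some of the alternative fits. RefSeq promoter windows of GRCm38.p6, each from 250 bases before to 50 after a start, matched 32 of the 44 members. The NF-kB motif was searched as GGG and TTCC with any 3 letters between them, on both strands, and matches on the 2 strands could overlap each other. It was present in the windows of Ccl9, Ccr3, Cxcl1, Cxcl2 and Cxcl10, 15.6% of the matched members, against 5.56% of all 32817 windows. The interferon-response motif, GAAA and GAAA with any 2 letters between them, was present in those of Ccl19, Cxcl10 and Cxcl14, 9.38% against 3.43%. The gamma-activated motif, TTC and GAA with any 3 letters between them, was present in that of Cxcl14 alone, 3.12% of the matched members against 8.29% of all windows, and the TATA motif TATAAA in those of 10 members, 31.2% against 13.6%. Both strands were searched for each motif. A member was counted when any of its windows held the motif, whereas the share of all windows counts single windows. The shares set beside each other are therefore in unlike units. The 170 bases before the start are given 5′ to 3′ for Cxcl1 (plus strand, chr5:90891075-90891244), Cxcl2 (plus strand, chr5:90903729-90903898) and Cxcl10 (minus strand, chr5:92348890-92349059), with matches to the NF-kB motif in capitals.
Cxcl1: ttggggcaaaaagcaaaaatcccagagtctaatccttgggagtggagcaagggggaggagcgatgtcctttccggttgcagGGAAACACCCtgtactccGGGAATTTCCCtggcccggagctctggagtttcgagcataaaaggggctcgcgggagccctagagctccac
Cxcl2: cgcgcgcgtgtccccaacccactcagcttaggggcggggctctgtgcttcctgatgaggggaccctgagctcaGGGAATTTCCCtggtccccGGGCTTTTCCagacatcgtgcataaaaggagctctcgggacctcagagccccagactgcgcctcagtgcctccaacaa
Cxcl10: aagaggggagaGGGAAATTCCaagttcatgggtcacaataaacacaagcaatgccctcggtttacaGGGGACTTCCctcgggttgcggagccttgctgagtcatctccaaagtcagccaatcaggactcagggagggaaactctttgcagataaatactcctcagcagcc
The capital run GGGAATTTCCC, made of overlapping matches on the 2 strands, stands in the windows of both Cxcl1 and Cxcl2, and each holds a further match beside it. That of Cxcl10 holds 2 separate matches. A match is a description of letters and not a measured site.

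The highest levels were those of constitutive and macrophage ligands, by TPM, which is per length and so allows genes to be compared. Cxcl12, which holds haematopoietic cells and lymphocytes through Cxcr4, had a mean of 227 TPM over the 6 libraries, with a range of 197 to 257, and made up 30.8% to 45.8% of the summed ligand TPM of a library. Ccl6 and Ccl9, ligands of Ccr1 made by macrophages and other myeloid cells, followed at 92.4 TPM (56.3 to 132) and 64.1 TPM (55.5 to 74.4), and their ranges overlapped each other. Below a gap, Cxcl16, Cxcl1, Ccl5, Cxcl9 and Cxcl10 stood at means of 33.9, 33.2, 24.2, 20.4 and 16.2 TPM, each with a range that overlapped the next. The monocyte attractant Ccl2 stood at 10.6 TPM and the neutrophil attractant Cxcl2 at 1.79 TPM. Among the receptors, Cxcr4 had the highest TPM at 15.4, followed by the monocyte receptor Ccr2 at 12.6. The 4 atypical receptors lay between 1.23 TPM (Ackr4) and 2.14 TPM (Ackr1). From rank 4 downward every member's range overlapped that of its neighbour in the order.

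**Figure D1:**
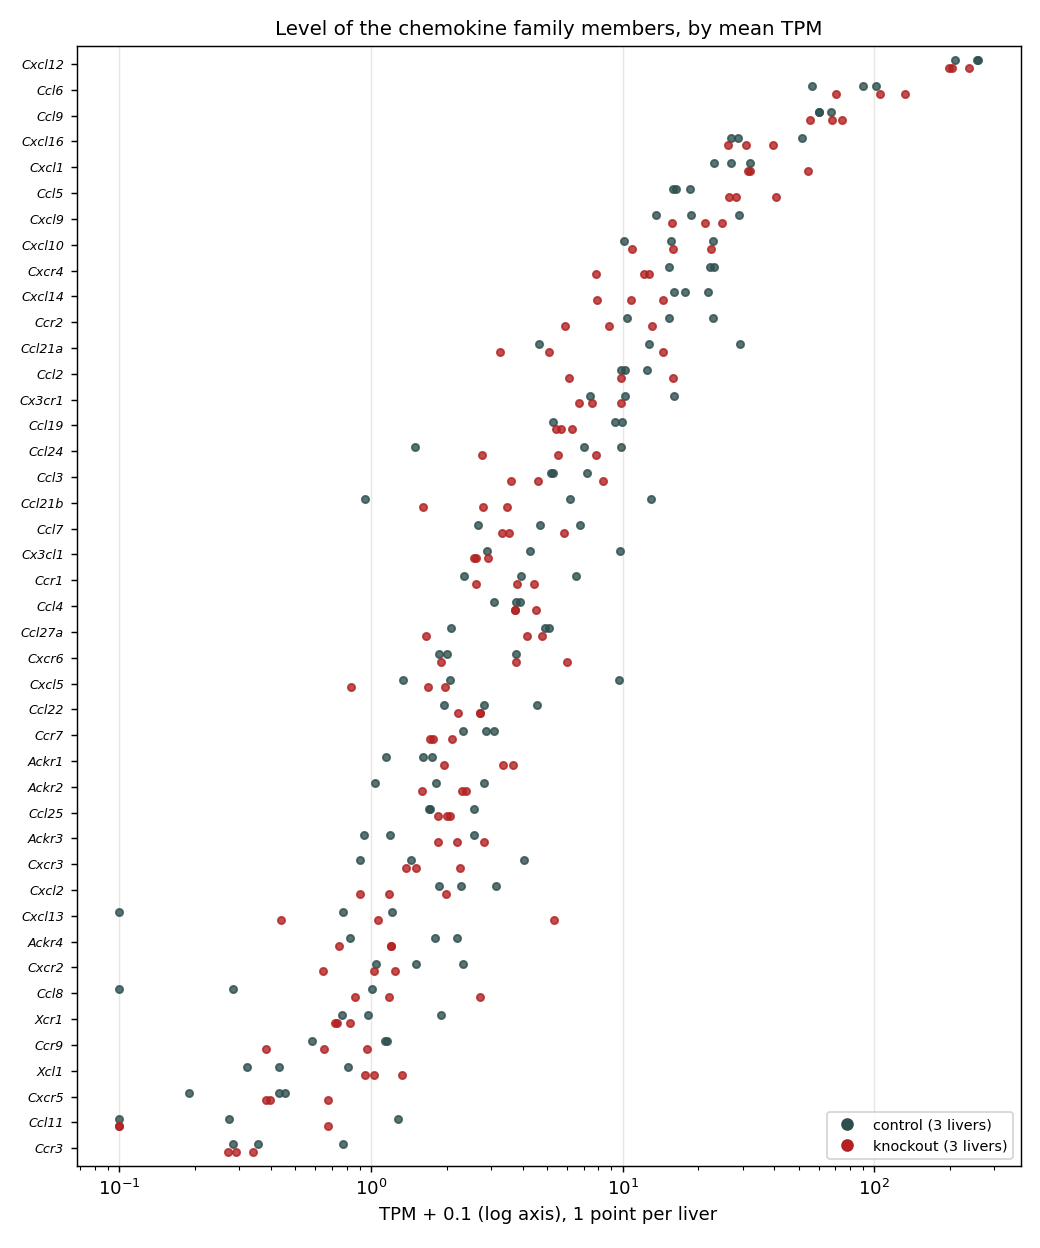
Level of 43 members in TPM + 0.1 on a log axis, 1 point per liver (dark, control; red, knockout), ordered by mean TPM. Cxcl12 stands apart at 197 to 257 TPM, and most other members have points of both groups over the same range.

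No member passed the test over all genes. Of the 44 members 39 passed the filter on low counts and were tested, and 0 of these had an adjusted p under 0.05 in edgeR's quasi-likelihood test, as was the case for 0% of the 13197 genes tested. At an unadjusted p under 0.05, 4 members were higher in the knockout (Ccl5, Cxcl1, Ackr1 and Ackr3) against 3.75% of all genes, and 3 were lower (Cxcr4, Cx3cl1 and Cxcl14) against 7% of all genes; together they were 17.9% of the tested members and 10.8% of all genes. The CPM of the groups did not overlap for 5 members higher and 3 lower in the knockout, 20.5% of those tested, against 7.25% and 9.14% of all genes, 16.4% in either direction. The median log2 fold change was 0.05 over the 39 members and 0.01 over all genes, and with total counts alone it was -0.19 over the members beside -0.21. In log2(TPM + 1), tested with limma, 2 members were higher and 4 lower at an unadjusted p under 0.05. By role, 15 of 24 tested ligands were above 0 (median 0.11), as were 4 of 11 signalling receptors (median -0.34) and 3 of 4 atypical receptors (median 0.77). DESeq2 called 1 member, Ccl5, and 0.969% of the 13113 genes that it adjusted. With 3 libraries a group, the smallest p of an exact permutation test is 0.1.

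**Figure D2:**
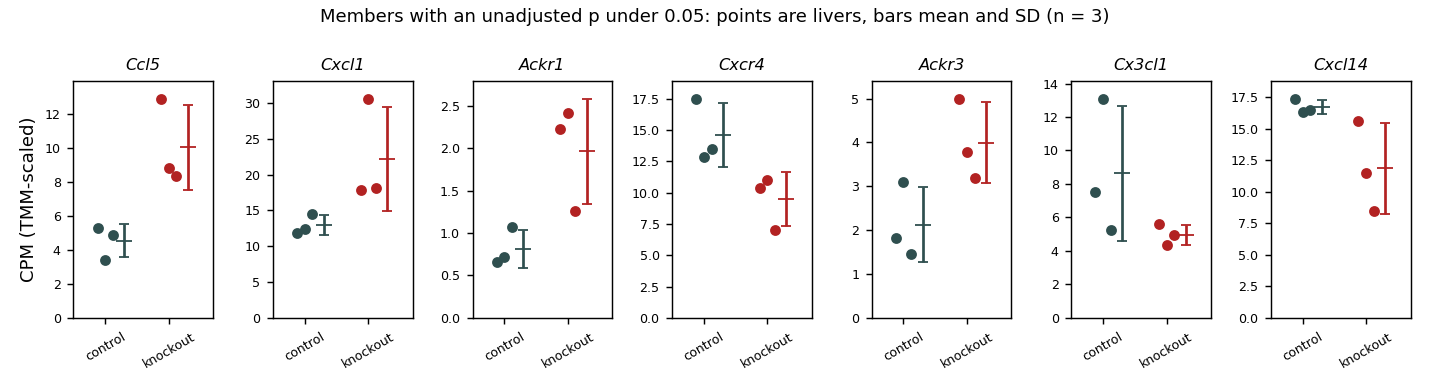
CPM (TMM-scaled) of the 7 members with an unadjusted p under 0.05, 1 point per liver with the mean and SD (n = 3 a group) beside the points; each axis starts at 0. The groups do not overlap except for Cx3cl1, where control replicate 3 at 5.27 lies below knockout replicate 1 at 5.58.

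Among the inflammatory CC ligands Ccl3, Ccl4, Ccl5, Ccl6 and Ccl9, which act on monocytes, macrophages and T cells, all 5 had log2 fold changes above 0, with 0.16 for Ccl3 as the lowest. Ccl5, released by activated T cells and natural killer cells, stood at 12.9, 8.84 and 8.35 CPM in the knockout livers and at 5.31, 3.43 and 4.88 CPM in the controls. Every knockout liver was above every control liver. Knockout livers averaged 10.0 ± 2.51 CPM (SD, n = 3) and control livers 4.54 ± 0.98 CPM, a ratio of 2.21, with a log2 fold change of 1.15 (standard error 0.25), an unadjusted p of 0.0015 and an adjusted p of 0.357 in edgeR. DESeq2's adjusted p was 0.0155. Ccl5's log2 fold change lay between 0.93 and 1.28 when each library was left out in turn, and was 0.95 with total counts alone.

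Of 16 markers of T and natural killer cells, given beside Ccl5 as cells that make it, 13 were above 0 and 4 had an unadjusted p under 0.05, all higher, with Cd8a the lowest in p at a log2 fold change of 1.64 (standard error 0.39). Their CPM summed to 45.9, 34.5 and 24.0 in knockout livers, against 21.5, 22.9 and 21 in controls, and the groups did not overlap; no marker was at 0 in all libraries. Their summed TPM did overlap, at 33.9 to 61.6 and 30.7 to 45.9. Of the 16 markers 25% had an unadjusted p under 0.05, against 10.8% of all genes. The order of the knockout livers in Ccl5 was that of the marker sum in CPM. Control replicate 2, however, was the highest control in that sum and the lowest in Ccl5. The part of these cells in the Ccl5 difference was not tested.

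The myeloid ligands Ccl6 and Ccl9 lie next to Ccl5 and overlapped between the groups. Ccl6 had 90.7, 112 and 60.6 CPM in knockout livers against 44.1, 59.6 and 73.9 CPM in controls (log2 fold change 0.57, standard error 0.25, unadjusted p = 0.0546 in edgeR). Control replicate 3 lay above knockout replicate 3. Ccl9 had 100, 132 and 122 CPM against 97.8, 82.6 and 102 CPM (0.32, standard error 0.16). Both values are from TMM scaling, and with total counts alone the log2 fold changes were 0.35 and 0.12. Ccl4 (0.37) and Ccl3, whose direction turned with total counts and in TPM, are low at 3.69 and 5.61 TPM. The 7 Kupffer cell markers, of resident macrophages, were all above 0, and 5 had an unadjusted p under 0.05; their summed CPM was 668 to 827 in knockout livers and 337 to 627 in controls. The share of these markers with an unadjusted p under 0.05 was 71.4%, against 10.8% of all genes. In summed TPM the Kupffer cell markers overlapped, at 552 to 693 and 303 to 583. Their part in the values of Ccl6 and Ccl9 was not tested.

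The ligands of Ccr2, which draws monocytes from the marrow and blood, overlapped between the groups where they were tested. Ccl2 had 2.93, 7.57 and 4.73 CPM in knockout livers and 4.29, 4.14 and 4.68 CPM in the control livers (log2 fold change 0.21, standard error 0.33). Knockout livers lay on either side of the controls, and the control livers were close together. Ccl7 gave 0.12 (standard error 0.40); both turned below 0 in TPM, and Ccl2 was -0.19 without knockout replicate 2. Ccl8 was under the filter and had counts of 15, 4 and 6 in knockout livers against 1, 4 and 0 in controls. When all genes with 20 or more counts were tested, it had a log2 fold change of 2.40 (standard error 1.01, unadjusted p = 0.041, adjusted p = 0.455 in edgeR). Ccl8 reached that limit only through its counts in knockout livers, so this value is a description and no support for a difference. The eosinophil attractant Ccl11 had 0 counts in 3 livers and at most 11 in any. The other eosinophil attractant, Ccl24, ran from 0.505 to 3.81 CPM within the control group alone.

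The ligands of Cxcr2, which attract neutrophils, had log2 fold changes of different sign. Cxcl1 had 17.9, 30.6 and 18.1 CPM in knockout livers and 11.9, 12.4 and 14.5 CPM in the control livers. In CPM all 3 knockout livers were above the controls, and knockout replicate 2 was highest. In TPM the groups overlapped, at 31.4, 54.6 and 31.9 in knockout livers against 22.9, 31.8 and 26.9 in controls. The log2 fold change was 0.78 (standard error 0.23), with an unadjusted p of 0.00821 and an adjusted p of 0.373 in edgeR; it was 0.48 without knockout replicate 2 and 0.57 with total counts alone. Cxcl2, its neighbour with a shared run of NF-kB letters and a different further match, had 0.585, 1.26 and 0.714 CPM against 1.16, 1.43 and 1.37 CPM (-0.63, standard error 0.43). Knockout replicate 2 lay among the controls. Cxcl5, made by epithelial cells, had 0.691, 1.72 and 1.48 CPM against 1.06, 6.19 and 1.76 CPM (-1.21, standard error 0.66), and without control replicate 2 its log2 fold change was -0.11.

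Within a liver the ratio of 2 genes does not depend on the scaling of libraries, and 5 ratios are given, chosen after the values were seen and so given as a description with no test. The ratio of Cxcl1 to Cxcl2 counts was 30.6, 24.3 and 25.4 in knockout livers and 10.2, 8.70 and 10.6 in the control livers. The knockout livers were all above the controls, with means of 26.8 ± 3.4 (SD, n = 3) and 9.85 ± 1.02. Over all 703 pairs of members with counts in every library, 19.6% had ratios that did not overlap between the groups. Cxcl1 is the more abundant of the pair in every liver. The ratio of Cxcl16 to its receptor Cxcr6 overlapped, at 7.59, 9.3 and 17.9 in knockout livers against 18.9, 16.8 and 18.6 in controls. That of Cxcl9 to Cxcl10 overlapped as well, at 6.03, 2.48 and 2.61 against 3.19, 3.36 and 3.57.

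**Figure D3:**
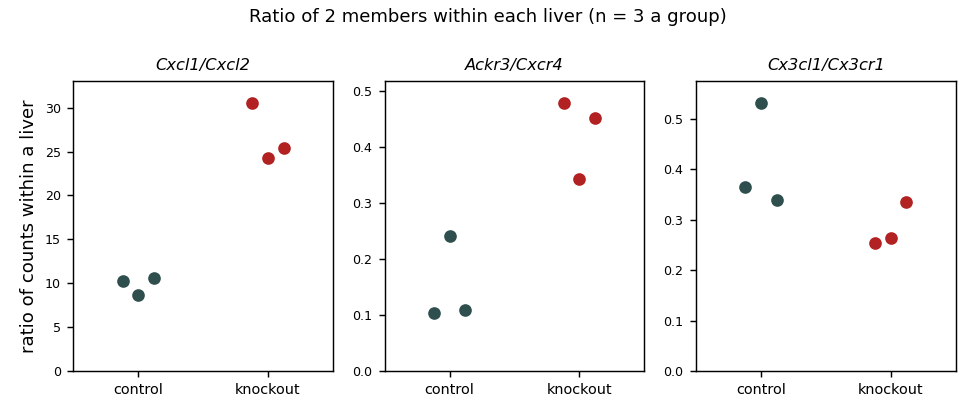
Ratio of the counts of 2 members within each liver (1 point per liver, 3 a group; each axis starts at 0). Cxcl1/Cxcl2 and Ackr3/Cxcr4 are higher in every knockout liver than in every control liver, and Cx3cl1/Cx3cr1 is lower.

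The neutrophil receptor Cxcr2 had 2.07, 1.66 and 0.989 CPM in knockout livers and 1.57, 2.76 and 2.44 CPM in the control livers (log2 fold change -0.52, standard error 0.39), so that the groups overlapped. Neutrophil markers summed to 126, 22.7 and 17.6 CPM in knockout livers and 16.1, 30 and 27.9 CPM in the control livers. Knockout replicate 1 stood far above the rest in these markers, and its Cxcr2 and Cxcl1 were within the range of the other livers. None of the 8 neutrophil markers tested had an unadjusted p under 0.05.

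The interferon-induced ligands of Cxcr3 overlapped between the groups. Cxcl9 had 42.7, 35.9 and 26.9 CPM in knockout livers and 29.2, 34.3 and 22.2 CPM in the control livers (log2 fold change 0.30, standard error 0.21). Cxcl10 had 7.07, 14.5 and 10.3 CPM against 9.15, 10.2 and 6.2 CPM (0.32, standard error 0.29). Neither stood apart from the spread between livers, and with total counts alone they were at 0.06 and 0.08. Their receptor Cxcr3, on activated T cells, was at 0.03 (standard error 0.51), and its direction turned with total counts and in TPM. Of the 12 transcription factors listed for chemokine genes, 8 were above 0 and 1 had an unadjusted p under 0.05: Irf1, which acts in the interferon-gamma response, with 44.2, 43.1 and 40.1 CPM against 23.6, 30.9 and 31.6 CPM (0.57, standard error 0.14, adjusted p = 0.367 in edgeR). The NF-kB subunit Relb was at -0.36. Of the 12 factors 8.33% had an unadjusted p under 0.05, against 10.8% of all genes.

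Lymphoid tissue ligands, which place B and T cells and dendritic cells, had wide ranges between livers, and none of the 5 had an unadjusted p under 0.05. Cxcl13, the B cell attractant, had counts of 68, 4 and 12 in knockout livers against 0, 11 and 9 in controls. Knockout replicate 1 held most of them, and the log2 fold change of 2.2 (standard error 1.13) was 0.46 without it. Ccl21a, a ligand of Ccr7, had 7.45, 1.61 and 2.58 CPM against 5.96, 10.4 and 2.24 CPM (-0.68, standard error 0.68), and was -0.07 without control replicate 2. Ccl21a and Ccl21b are near-identical copies whose reads can be split between them, so that their separate values are uncertain, as is that of Ccl27a. Ccl19 gave -0.23 (standard error 0.29), and its receptor Ccr7, of migrating dendritic cells and naive T cells, had 1.97, 1.89 and 2.36 CPM against 2.98, 2.43 and 2.49 CPM. Ccr7 was lower in every knockout liver, by a small margin and with an unadjusted p of 0.256 in edgeR (log2 fold change -0.34).

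Cxcl12 itself overlapped between the groups, while its receptors Cxcr4 and Ackr3 did not and had opposite signs in CPM. Cxcl12 had 335, 277 and 296 CPM in knockout livers and 330, 238 and 278 CPM in controls (log2 fold change 0.10, standard error 0.18, turning to -0.10 with total counts). Cxcr4, the signalling receptor, had 10.4, 11 and 7.03 CPM against 17.5, 12.8 and 13.5 CPM. Every knockout liver was below every control liver, at means of 9.49 ± 2.15 CPM (SD, n = 3) and 14.6 ± 2.52 CPM. The log2 fold change was -0.62 (standard error 0.21, unadjusted p = 0.0181, adjusted p = 0.387 in edgeR), between -0.74 and -0.44 when each library was left out.

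Ackr3, the scavenging receptor of Cxcl12, had 5, 3.79 and 3.19 CPM in knockout livers and 1.82, 3.10 and 1.46 CPM in the control livers. The groups did not overlap, although knockout replicate 3 and control replicate 2 lay close together. Its log2 fold change was 0.91 (standard error 0.35, unadjusted p = 0.0299, adjusted p = 0.416 in edgeR). In log2(TPM + 1) it was 0.42, and there the groups overlapped. The ratio of Ackr3 to Cxcr4 counts was 0.480, 0.344 and 0.453 in knockout livers and 0.104, 0.242 and 0.108 in the control livers.

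Of the other atypical receptors, Ackr1, which venular endothelial cells and red cell precursors use to bind inflammatory chemokines, had 2.23, 2.41 and 1.26 CPM in knockout livers and 0.657, 0.714 and 1.07 CPM in the control livers. All knockout livers were above the controls, at few counts (42, 42 and 23 against 13, 15 and 22). The log2 fold change was 1.27 (standard error 0.42, unadjusted p = 0.0152, adjusted p = 0.381 in edgeR), and Ackr1 overlaps Cadm3 on the same strand. Ackr2, which degrades inflammatory CC chemokines, gave 0.64 (standard error 0.35), and Ackr4, which scavenges Ccl19 and Ccl21, gave -0.55 (standard error 0.55). Both overlapped between the groups. The summed TPM of the 4 atypical receptors was 9.26, 7.78 and 6.98 in knockout livers and 5.18, 6.41 and 6.89 in the control livers, so that the groups were apart by a narrow margin.

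The sinusoidal receptor Gpr182, an atypical chemokine receptor whose name lies outside the rule, had 34.7, 36.0 and 44.1 CPM in knockout livers and 21.7, 28.3 and 25.3 CPM in the control livers (log2 fold change 0.61, standard error 0.15), while its TPM overlapped. Of 9 tested chemokine-related genes outside the rule it alone had an unadjusted p under 0.05, 11.1% of them against 10.8% of all genes. Cmklr1 (0.29) and its ligand gene Rarres2 (0.33) did not reach it. Of 6 endothelial markers, 5 had log2 fold changes above 0 and 1 an unadjusted p under 0.05, with a summed CPM of 365 to 392 in knockout livers and 292 to 353 in controls. The share of these markers with an unadjusted p under 0.05 was 16.7%, against 10.8% of all genes. In summed TPM the endothelial markers overlapped, at 213 to 236 and 174 to 220. Their part in the values of Ackr1, Ackr3 and Gpr182 was not tested.

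Monocyte receptors overlapped between the groups. Ccr2, the receptor of recruited monocytes, had 27.0, 18.4 and 11.4 CPM in knockout livers and 28.6, 32.5 and 19.5 CPM in the control livers (log2 fold change -0.50, standard error 0.31). Knockout replicate 1 lay among the controls, and knockout replicate 3 was lowest of all 6 livers. Without knockout replicate 3 the log2 fold change was -0.24. Ccr1, a receptor of Ccl6 and Ccl9, was at 0.05 (standard error 0.32) and turned with total counts and in TPM.

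Membrane-bound ligands and their single receptors were compared as pairs. Cx3cl1, or fractalkine, shed by endothelial and epithelial cells, had 5.58, 4.36 and 4.95 CPM in knockout livers and 7.53, 13.1 and 5.27 CPM in the control livers. Control replicate 2 was highest and control replicate 3 lay among the knockout livers. Cx3cl1 had a log2 fold change of -0.80 (standard error 0.32, unadjusted p = 0.0368, adjusted p = 0.438 in edgeR), and without control replicate 2 it was -0.36. Its receptor Cx3cr1, of monocytes and macrophages, gave -0.19 (standard error 0.21). The ratio of ligand to receptor counts was 0.254, 0.264 and 0.336 in knockout livers and 0.366, 0.533 and 0.339 in the control livers, so that the closest livers differed by little. Cholangiocyte markers were below 0 in 5 of 5 cases and 4 had an unadjusted p under 0.05. Their summed CPM was 37.9, 10.5 and 20.4 in knockout livers and 55.3, 91.6 and 32.1 in the control livers. The sum was highest in control replicate 2, as were Cx3cl1, Cxcl5 and in all 14 of the 44 members. Cx3cl1 followed the order of the sum within both groups. Cxcl5 ran in the reverse order in the knockout livers, at 0.691, 1.72 and 1.48 CPM. Of the 5 cholangiocyte markers 80% had an unadjusted p under 0.05, against 10.8% of all genes. The part of bile duct cells in the values of Cx3cl1 and Cxcl5 was not tested.

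Cxcl16 had 50.8, 37.9 and 36.4 CPM in knockout livers and 37.3, 48.1 and 35.3 CPM in the control livers, a log2 fold change of 0.05 (standard error 0.18) that turned with total counts and in TPM. Its receptor Cxcr6, of liver-resident T and natural killer T cells, had 6.70, 4.07 and 2.03 CPM against 1.97, 2.86 and 1.90 CPM. Knockout replicate 1 was highest and knockout replicate 3 lay among the controls. Cxcr6 had a log2 fold change of 0.93 (standard error 0.43, unadjusted p = 0.059 in edgeR) and was 0.45 without knockout replicate 1. The knockout livers had the same order in Cxcr6 as in the T and natural killer cell marker sum. Xcl1, another lymphocyte ligand, was under the filter at 5, 5 and 7 counts against 4, 1 and 2, and its receptor Xcr1, of cross-presenting dendritic cells, gave -0.44 (standard error 0.35).

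Cxcl14, a ligand of epithelial and stromal cells, had 15.6, 11.5 and 8.46 CPM in knockout livers and 17.4, 16.3 and 16.5 CPM in the control livers. The controls were close together and all knockout livers lay below them. Means were 11.8 ± 3.57 CPM (SD, n = 3) and 16.8 ± 0.60 CPM, with a log2 fold change of -0.50 (standard error 0.22, unadjusted p = 0.047, adjusted p = 0.46 in edgeR). Without knockout replicate 3 it was -0.30. The remaining tested ligands Ccl22, Ccl25 and Ccl27a had log2 fold changes of -0.00, 0.36 and -0.04, with standard errors from 0.29 to 0.55. Ccr9, which guides lymphocytes to the gut, gave -0.48 (standard error 0.52), and Ccr3 and Cxcr5 had at most 19 counts in any liver and were not tested.

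**Figure D4:**
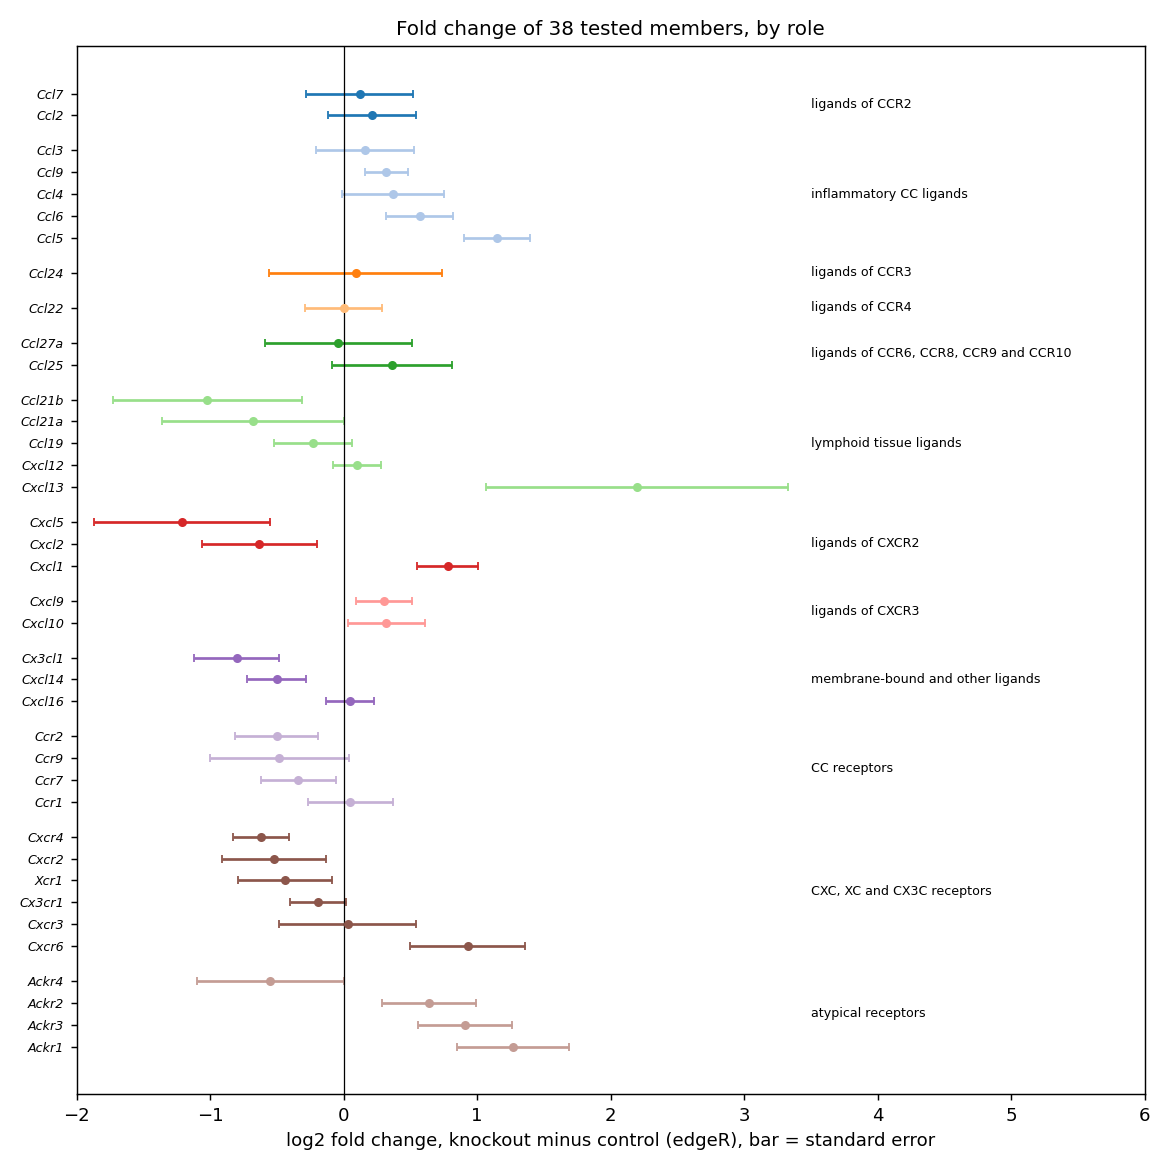
Log2 fold change (knockout minus control, edgeR) of 38 tested members with its standard error as a bar, grouped by role. The inflammatory CC ligands all lie above 0, and the ligands of Cxcr2 lie on both sides, from -1.21 for Cxcl5 to 0.78 for Cxcl1.

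Genes that relay the signal of chemokine receptors inside the cell showed both directions. Of 39 listed genes, all tested, 23 were above 0 and 16 below, 4 had an unadjusted p under 0.05 as higher and 1 as lower, and the median was 0.04. Rgs3, which switches off G protein signals, had 15.4, 15.8 and 23.4 CPM in knockout livers and 8.69, 12.1 and 10.6 CPM in the control livers (log2 fold change 0.80, standard error 0.21, adjusted p = 0.367 in edgeR). Jak3 gave 0.44 (standard error 0.15) and Jak2 -0.48 (standard error 0.17), each with groups that did not overlap in CPM. In TPM the groups overlapped for Rgs3 and Jak3 and not for Jak2. Groups apart in CPM were found for 20.5% of the 39 genes and 16.4% of all genes. Of the 39 genes 12.8% had an unadjusted p under 0.05, against 10.8% of all genes.

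**Figure D5:**
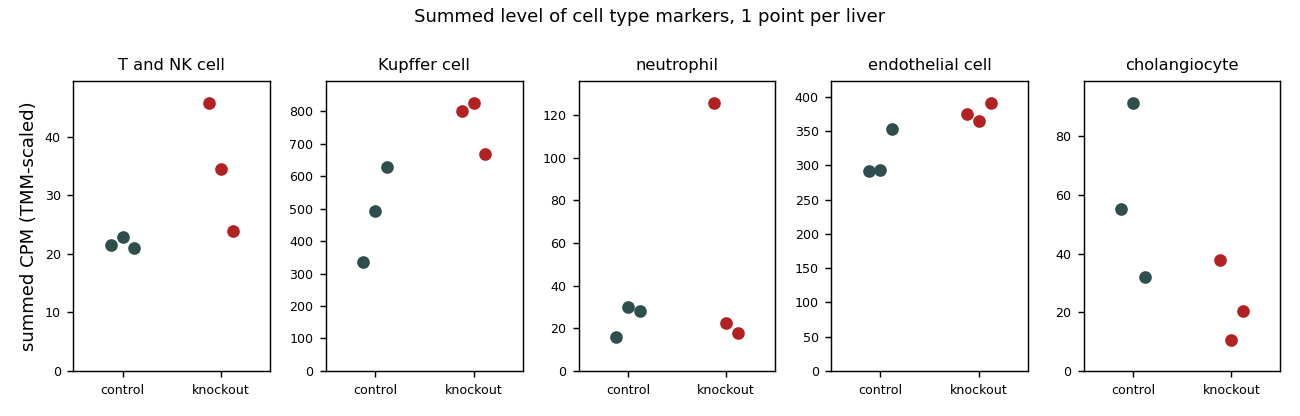
Summed TMM-scaled CPM of 5 cell type marker lists, 1 point per liver (dark, control; red, knockout; each axis starts at 0). The sums of T and natural killer cell, Kupffer cell and endothelial markers are higher in all knockout livers, the neutrophil sum is high in knockout replicate 1 alone at 126, and the cholangiocyte sums overlap. The hepatocyte sum, not drawn, was also higher in all knockout livers, at 122436 to 138551 against 66903 to 120048 in controls. Those of the monocyte and lipid-associated macrophage, dendritic cell, B and plasma cell, and stellate cell lists, also not drawn, overlapped.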

How the data were processed

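For each of 6 libraries the authors deposited estimated counts per gene and TPM. Their processing notes, as the submitters gave them, list GRCm38 and the tools RSEM 1.3.3, HISAT2 2.2.1, fastp 0.23.2 and DESeq2 1.38.3 without saying what each did. The deposited estimated counts were not normalized; 6.93% were not whole, and they were rounded for testing. No annotation release or strand setting is given in the sources used here, so values of the 14 members that overlap a gene on the other strand, and of 3 on the same strand, are uncertain. The authors' TPM served for levels and for an alternative.

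Knockout and control (3 libraries each) were compared with edgeR 4.0.16 (R 4.3.3) by the quasi-likelihood test with TMM scaling, filterByExpr and a robust fit, and Benjamini-Hochberg adjustment over 13197 genes at 0.05. Standard errors are the absolute log2 fold change over the square root of F. CPM used TMM-scaled library sizes. Positions are from GENCODE M21 on GRCm38, promoters from RefSeq on GRCm38.p6. The labels call the libraries biological replicates; within-group pairs differed far beyond sampling noise, with a chi-square per gene of 29 to 96.8. The test was checked on simulated data in which only genes with higher counts were changed. It recovered 67% of 2-fold and 99% of 4-fold changes, and 14 of the 180 genes called were false. Recovery at low counts was not checked.

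Named with full values were Sting1, the tested members with the smallest p, the highest TPM or the largest change of a role, and up to 3 genes of each related list; other members are named with fewer values. Results of 1 member and 1 listed gene are not reported here, although counts and medians over members and lists include them. Members, lists and rules were chosen with earlier results of these data known. Alternatives were DESeq2 1.42.0, limma-voom and log2(TPM + 1) or log2(TPM + 0.1) in limma 3.58.1, other scalings and filters, a replicate block, and each library left out.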

Additional observations from a re-analysis of the deposited data

How the results depend on the processing

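Sting1 was lower under every alternative run, and in DESeq2 its log2 fold change was -1.28 with an adjusted p of 0.00187; leaving out each library gave -1.42 to -1.06. The count of all genes called, 0 in edgeR (1419 at an unadjusted p under 0.05), was 127 in DESeq2, 5 with the replicate block, and 0 to 2 when each library was left out. That of members, 0 in edgeR, was 1 in DESeq2 (Ccl5). The 4 members higher at an unadjusted p under 0.05 became 9 in DESeq2, 8 with no filter, 2 in log2(TPM + 1) and in log2(TPM + 0.1), and 2 to 7 when each library was left out; the 3 lower became 0 to 4 there. Ccl5 and Cxcl1 stayed under 0.05 in all 6 of those fits, Ackr1 and Cxcr4 in 4, Ackr3 and Cx3cl1 in 2, and Cxcl14 in 1. The counts in DESeq2 and with no filter include Ccl8, which was not tested in the main fit. In DESeq2 11.5% of the 13113 genes that it adjusted had an unadjusted p under 0.05, beside 10.8% in the main test. That share was not taken for the other alternatives. Libraries of the 2 groups share replicate numbers, and the labels do not say that these mark pairs. Deviations of same-numbered libraries correlated at 0.142, 0.0572 and 0.183, and those of differently numbered ones at -0.286 to 0.143. These values do not settle whether the numbers mark pairs. With the replicate block Sting1 was at -1.28.

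Of 38 members compared 27 kept their direction in every fit, and 11, with values from -0.04 to 0.36 in the main test, turned in 47 of 570 fits; the cause was not tested. With total counts only the log2 fold change was -0.10 for Cxcl12, -0.05 for Ccl3, -0.11 for Ccl7, -0.19 for Cxcl16 and Ccr1, -0.10 for Ccl24 and -0.26 for Cxcr3. In log2(TPM + 1) it was -0.00 for Ccl25, -0.11 for Ccl2, -0.18 for Cxcl12, -0.14 for Ccl3, -0.09 for Ccl7, -0.11 for Cxcl16, -0.14 for Ccr1 and -0.09 for Cxcr3. In log2(TPM + 0.1) it was -0.13 for Ccl2, -0.18 for Cxcl12, -0.17 for Ccl3, -0.10 for Ccl7, -0.11 for Cxcl16, -0.15 for Ccr1 and -0.06 for Cxcr3. Ccl22, at -0.00, was 0.00 with 20 or more counts, 0.01 with no filter and in DESeq2, and 0.03 with the replicate block and in limma-voom, where Ccl27a was 0.01. Leaving out each library gave -0.19 to 0.49 for Ccl2, -0.26 to 0.40 for Ccl3, -0.17 to 0.29 for Ccl7, -0.36 to 0.90 for Ccl24, -0.39 to 0.29 for Ccl27a, -0.20 to 0.20 for Ccl22, -0.11 to 0.21 for Cxcl16, -0.20 to 0.30 for Ccr1 and -0.30 to 0.68 for Cxcr3. Low counts limit what could be detected for Ackr1 and for members under 2 TPM such as Cxcl13 and Ccl8.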
